A study of Mus musculus with 20 samples.

Results

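The genes described here are 10 immediate early and injury response genes in dorsal root ganglia (DRG) of C57Bl6 mouse embryos at E18.5, shortly before birth. They are Fos, Fosb, Jun, Junb, Egr1, Nr4a1 and Atf3, which encode transcription factors, Ier2, which encodes a nuclear protein, Dusp1, which encodes a phosphatase, and Arc, which encodes a synaptic effector. They were chosen by name, and each symbol matched 1 Ensembl gene, which gave 10 of the 37620 genes listed. RNA-seq was performed on 20 libraries from 10 embryos (donors), 5 male and 5 female. Each donor gave a lumbar library, from the L4-5 ganglia that the study treats as housing somatic sensory neurons, and a sacral library, from the L6-S1 ganglia that also house neurons projecting to the pelvic viscera. Level and sex together gave 4 groups of 5 libraries. No allele, treatment or injury is named for any group. Whole ganglia were used, kept in cold medium until all dissections were complete, and the RNA was amplified before libraries were made. Donors are named here by sex and the number in the labels (M1, M3, M5, M7, M8, F3, F7, F8, F9 and F10).

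Immediate early genes are transcribed within minutes of a stimulus because their promoters are already bound by factors that kinases switch on, and they need no new protein synthesis. In sensory neurons they respond to electrical activity, growth factors, axon damage and the handling of tissue. Fos and Jun family proteins pair with each other to form the dimeric transcription factor AP-1. Egr1 is a zinc finger factor and Nr4a1 an orphan nuclear receptor, both induced by calcium and growth factor signals. Atf3 is a stress-induced factor widely used to mark sensory neurons whose axons have been cut. Dusp1 switches off the MAP kinases that drive the others, and Arc acts on the trafficking of glutamate receptors at synapses.

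A shared feature of this class is the cAMP response element (CRE), whose core, TGACG or CGTCA on the other strand, is read by CREB and related factors. RefSeq promoters of build GRCm38.p6 were matched for 7 of the 10 genes (Fos, Fosb, Jun, Junb, Atf3, Dusp1 and Nr4a1), and the 250 bases before the annotated start were searched on both strands. The core was present in 6 of the 7, against 17.8% of 32851 promoters of the same length. Nr4a1 held 4 copies, a number reached by 0.137% of all promoters, Dusp1 held 3, Fos held 2 and Jun held none. The complete palindrome TGACGTCA, which overlaps the core on both strands, was found in Dusp1 and in 1.55% of all promoters. The sequences of 4 genes are shown because these genes carry the results below: Nr4a1 was the gene called between spinal levels, Jun and Dusp1 were the most abundant, and Fos is the reference gene of the class. Each runs 5′ to 3′ along its own strand and ends at the base before the start, and capitals mark the CRE core.
Nr4a1 (chr15:101266596-101266845, plus strand): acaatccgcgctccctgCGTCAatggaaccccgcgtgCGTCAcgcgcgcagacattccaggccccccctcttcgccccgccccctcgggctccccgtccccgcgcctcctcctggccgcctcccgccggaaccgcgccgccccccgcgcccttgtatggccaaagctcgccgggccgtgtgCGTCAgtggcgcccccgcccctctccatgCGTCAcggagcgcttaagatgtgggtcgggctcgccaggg
Dusp1 (chr17:26508473-26508722, minus strand): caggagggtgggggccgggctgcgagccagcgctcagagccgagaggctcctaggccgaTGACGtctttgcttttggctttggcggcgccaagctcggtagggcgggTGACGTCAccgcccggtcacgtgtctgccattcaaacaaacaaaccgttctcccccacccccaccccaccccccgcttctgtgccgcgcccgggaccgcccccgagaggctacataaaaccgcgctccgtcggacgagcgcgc
Fos (chr12:85473640-85473889, plus strand): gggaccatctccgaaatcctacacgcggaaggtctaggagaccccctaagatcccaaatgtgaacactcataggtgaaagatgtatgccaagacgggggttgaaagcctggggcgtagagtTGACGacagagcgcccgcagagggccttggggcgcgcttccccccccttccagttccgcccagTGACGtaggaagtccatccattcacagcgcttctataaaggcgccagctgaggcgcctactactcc
Jun (chr4:95052223-95052472, minus strand): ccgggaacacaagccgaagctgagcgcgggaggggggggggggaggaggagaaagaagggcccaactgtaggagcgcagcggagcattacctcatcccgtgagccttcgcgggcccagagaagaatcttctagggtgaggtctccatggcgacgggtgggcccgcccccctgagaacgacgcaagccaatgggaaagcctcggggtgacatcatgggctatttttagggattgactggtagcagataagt
A TATA motif (TATAAA, or TTTATA on the other strand) began 33 bases before the start of Fos, and 12.4% of all promoters held one. An EGR motif (GCGGGGGCG, or its reverse complement) was found in Fosb and Nr4a1 and in 2.57% of all promoters. No AP-1 motif (TGACTCA or TGAGTCA) and no CArG box was found in the 7 windows, against 4.46% and 1.47% of all promoters. Sites farther than 250 bases from the start, and the promoters of Egr1, Ier2 and Arc, were not searched. These matches describe letters only and do not show that a factor bound there.

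Gene structure was compact across the class. The genes spanned a median of 3436 bases, against 24574.5 bases for the 12140 protein coding genes tested, and 9 of 10 had at most 4 exon blocks, against 21.0%. Jun, Junb and Ier2 are single-exon genes. Nr4a1 lies on chromosome 15 at 101097277 to 101105223 (plus strand, 7 exon blocks), Arc on chromosome 15 at 74499513 to 74503000 (minus strand, 3 exon blocks) and Jun on chromosome 4 at 94715725 to 94718913 (minus strand) in build mm9. Jun overlaps BC042782 and Egr1 overlaps Gm17507 on the opposite strand, and use of strand in counting was not given, so reads of these 2 genes are uncertain to that extent.

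Library depth ranged from 19403023 to 39257771 reads over the genes for which reads could be recovered. Mitochondrial rRNA (mt-Rnr1 and mt-Rnr2) took 18.1% to 61.4% of those reads, lowest in sacral F3 and highest in lumbar M5. No pair of libraries held identical values, and Xist and Ddx3y matched the labelled sex in 20 of 20 libraries. Markers of the labelled tissue were present. All 8 sensory neuron markers and all 8 markers of Schwann cells and satellite glia had reads in every library, with summed levels of 7.69 to 9.87 and 7.96 to 9.03 on the log2 RPKM scale.

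Across the 20 libraries the class spanned a wide range of levels. Expression was measured as log2 RPKM, the logarithm of read counts scaled to exon length and to library size, which can be compared between genes. Jun was the most abundant at 3.34 ± 0.29 (SD, n = 20), above 88.8% of the 29049 genes with a value, and Dusp1 followed at 3.23 ± 0.28. Egr1 (1.51 ± 0.38) and Nr4a1 (1.36 ± 0.55) were intermediate, and Ier2 lay lower at -0.36 ± 0.76. Fos (-1.60 ± 0.72), Arc (-1.88 ± 1.53), Atf3 (-2.20 ± 1.41), Junb (-2.83 ± 1.36) and Fosb (-3.92 ± 1.43) were the least abundant. Neighbours in this order differed by more than the spread of their difference over the 20 libraries at 3 steps, from Dusp1 to Egr1, from Nr4a1 to Ier2 and from Ier2 to Fos. The other 6 neighbouring pairs, including Jun with Dusp1 and Fos with Arc, did not.

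Fos and Atf3 were thus covered by few reads. Fos was covered by 7 to 87 reads per library (0.372 ± 0.193 RPKM, SD, n = 20), lowest in lumbar M3 and highest in lumbar F8. Atf3 was covered by 2 to 58 reads (0.321 ± 0.274 RPKM), lowest in lumbar M8 and highest in lumbar F7. Fosb had 1 to 36 reads and Junb 0 to 25, with no read in lumbar F7, where 0 reads allow up to 3. By contrast, Jun had 392 to 1695 reads, Dusp1 258 to 1074 and Nr4a1 74 to 399. Only Jun, Dusp1, Egr1 and Nr4a1 had a mean log2 RPKM of at least 0 (that is, of 1 RPKM) in at least 1 group, the limit for the test across all genes. Ier2 was close to it, with a mean log2 RPKM of -0.13 and a mean of linear values of 1.0 RPKM in lumbar female DRG. The other 6 fell below it and were tested singly over the 10 donors.

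**Figure D1:**
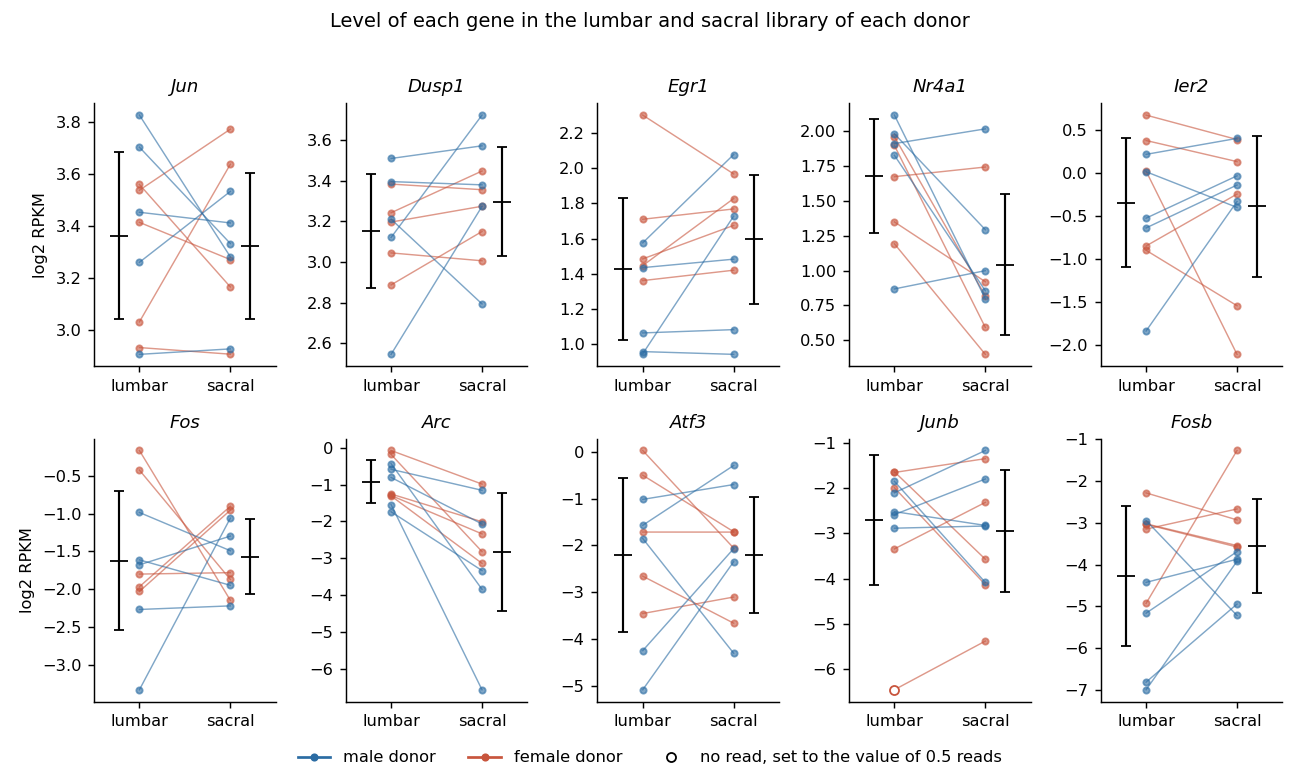
Log2 RPKM of each gene (y axis, a separate scale in each panel) in the lumbar and sacral library of the 10 donors, with a line joining the libraries of a donor, blue for male and red for female. Black bars give the mean ± SD of 10 libraries, and the open circle is the lumbar F7 library without a Junb read. Arc falls from lumbar to sacral in 10 of 10 donors, whereas the lines of Fos, Atf3 and Ier2 cross.

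Spread between libraries of the same group exceeded counting error for all 9 genes whose reads were recovered. The variance of their reads was 4.64 times (Junb) to 39.2 times (Jun) that expected from counting. In log2 units the residual SD of the model was 0.29 for Dusp1, 0.31 for Jun, 0.33 for Egr1 and 0.47 for Nr4a1. It was 0.77 for Ier2, 0.80 for Fos, 1.18 for Arc, 1.24 for Fosb, 1.37 for Junb and 1.43 for Atf3. Low genes are more variable in any RNA-seq table, so each SD was set against the trend of SD with mean level over 27145 genes. Atf3 was 1.41 times its trend, more than 71.5% of genes, Nr4a1 was 1.27 times and Arc 1.24 times. Fos was 0.90 times its trend and Egr1 0.93 times. Ratios of all 10 genes lay between the 31.9th and 71.5th percentile of all genes.

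**Figure D2:**
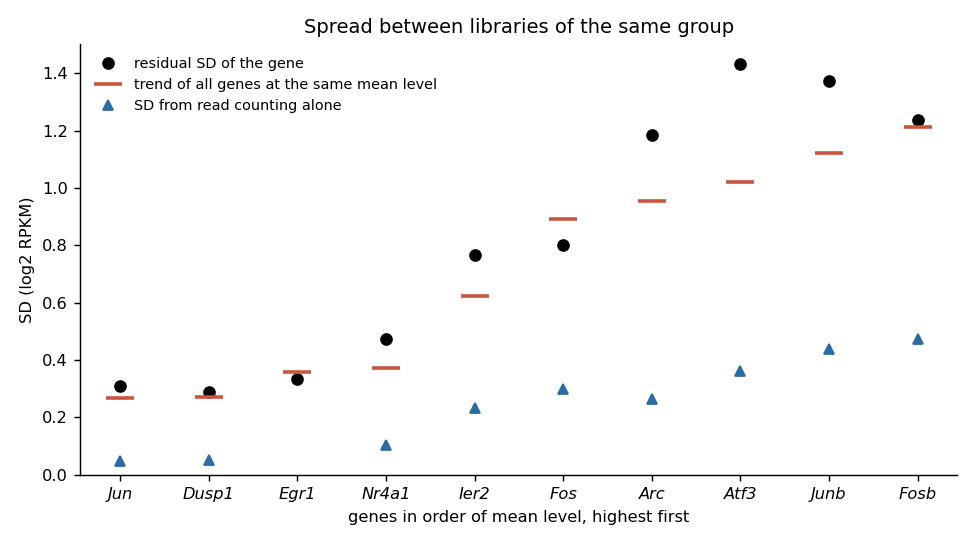
SD in log2 RPKM (y axis) of each gene, in order of mean level from left to right. Black points are the residual SD over the 20 libraries, red bars the trend of 27145 genes at the same level and blue triangles the SD from read counting alone (no triangle for Egr1). Atf3 stands farthest above its red bar, at 1.43 against 1.02.

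Spinal level was compared within donors as sacral minus lumbar, the main contrast of the study. Arc and Nr4a1 were lower in sacral DRG, and the test was not passed by the other 8 genes. Arc was low at both levels. In lumbar male DRG (M1, M3, M5, M7 and M8) it stood at -1.54, -0.59, -1.74, -0.81 and -0.43 log2 RPKM, and in the sacral libraries of the same donors at -6.57, -1.16, -3.34, -2.07 and -3.85. In lumbar female DRG (F3, F7, F8, F9 and F10) it stood at -0.07, -1.31, -1.26, -0.18 and -1.30, and in sacral at -0.99, -3.14, -2.01, -2.82 and -2.34. Every donor had less in sacral, although the levels overlapped between donors, since sacral F3 and sacral M3 lay above the lowest lumbar libraries.

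The mean level of Arc was -0.92 ± 0.59 in lumbar and -2.83 ± 1.60 in sacral DRG (SD, n = 10 each), or 0.568 ± 0.231 against 0.207 ± 0.161 RPKM, a ratio of 2.74. The paired difference was -1.91 ± 1.41 (SD, n = 10), lower in 10 of 10 donors. An exact two-sided sign-flip permutation test over donors gave p = 0.00195, the smallest that 10 donors allow. Among the 12619 genes below the 1 RPKM limit, 2.27% were lower in sacral at p of at most 0.05 in this test and 0.206% were lower in every donor, against 1.95% of the genes above the limit. In the limma fit with no limit on level (27145 genes, of which 1.86% were called and 1.03% were called lower), Arc gave -1.91 with SE 0.44 and an adjusted p of 0.0287. Sacral M1 held 1 Arc read, and without donor M1 the difference was -1.56 (exact permutation p = 0.00391). Reads were 541 in all over the lumbar and 192 over the sacral libraries, so single sacral values of 1 to 11 reads (M1, M5, M8, F7 and F9) are imprecise.

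Nr4a1 was lower in sacral DRG by a smaller amount. In lumbar male DRG (donors in the same order) it stood at 1.91, 2.12, 0.87, 1.83 and 1.98 log2 RPKM, and in sacral male DRG at 2.02, 0.80, 1.0, 0.86 and 1.29. In lumbar female DRG it stood at 1.67, 1.90, 1.96, 1.35 and 1.19, and in sacral female DRG at 1.74, 0.59, 0.82, 0.92 and 0.40. It fell in 7 of 10 donors and was slightly higher in sacral in M1, M5 and F3, and the levels overlapped. The mean was 1.68 ± 0.41 in lumbar and 1.04 ± 0.50 in sacral (SD, n = 10 each). The limma difference was -0.63 with SE 0.17 and an adjusted p of 0.0272 over 14529 genes, of which 6.73% were called and 4.03% were called lower. Nr4a1 was the only call, in either direction, among the 4 genes of the class tested in this way, and 2.7% of all genes were called higher. The call was lost without M3 (0.0759), M7 (0.0645), M8 (0.0547), F7 (0.095) or F10 (0.0621), and without the donor block (adjusted p = 0.125). The difference stayed between -0.73 and -0.45 under all alternatives run, the last on the log2(RPKM + 1) scale.

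**Figure D3:**
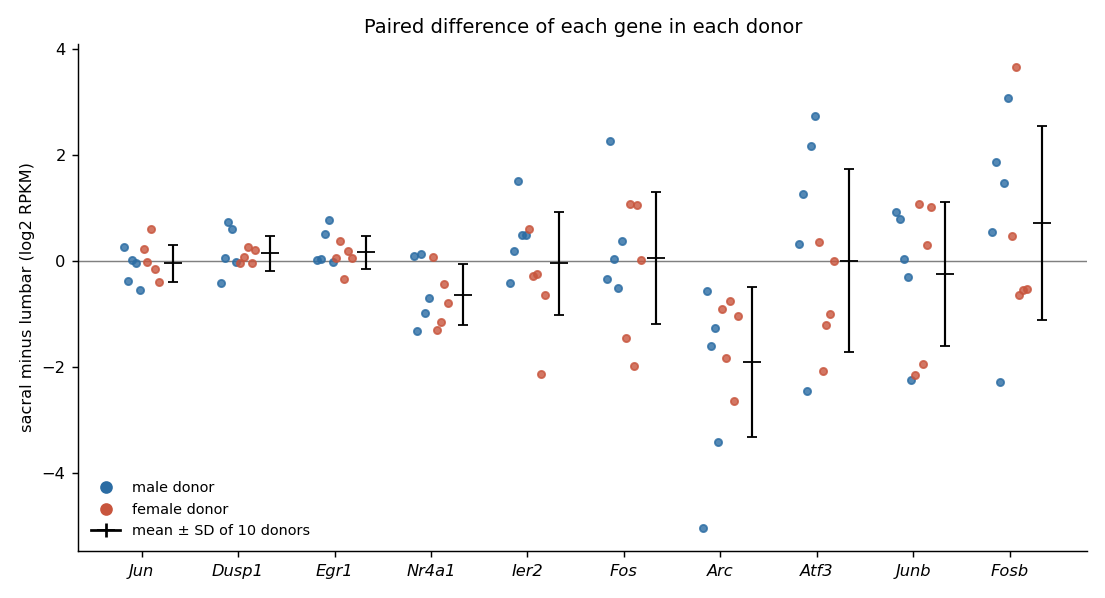
Sacral minus lumbar difference in log2 RPKM (y axis) of each gene in each of 10 donors, blue for male and red for female, with genes in order of mean level. Black bars give the mean ± SD. The 10 Arc points lie below 0, 7 of 10 Nr4a1 points lie below 0, and the points of the other genes fall on both sides.

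The AP-1 genes did not differ detectably between levels. Jun, the main partner of Fos proteins, differed by -0.04 ± 0.35 (SD, n = 10; limma adjusted p = 0.856) and Fos by 0.06 ± 1.25 (exact permutation p = 0.889). Fosb differed by 0.71 ± 1.83 (exact permutation p = 0.248) and Junb by -0.24 ± 1.36 (exact permutation p = 0.566). The Fos differences ranged from -1.98 in F8 to 2.27 in M3, and the standard error of the mean was 0.32 in the limma fit of all 27145 genes. That fit takes 1 donor correlation for all genes, whereas lumbar and sacral Fos had r = -0.50 over donors. This standard error may therefore be too small. Jun was measured more precisely, with a standard error of 0.11.

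Egr1, Dusp1, Ier2 and Atf3 gave no call either. Egr1 was higher in sacral in 8 of 10 donors by a small amount, 0.17 ± 0.31 (limma adjusted p = 0.397), and Dusp1 differed by 0.14 ± 0.33 (limma adjusted p = 0.41). Ier2 differed by -0.04 ± 0.97 (exact permutation p = 0.885). Atf3, the marker of cut axons, differed by 0.01 ± 1.72 (exact permutation p = 0.98), with donors from -2.44 in M5 to 2.73 in M8.

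Markers of cell types moved with the same contrast. The summed level of the 8 sensory neuron markers was lower in sacral by 0.411 ± 0.428 log2 units (SD, n = 10, lower in 9 of 10 donors), with ranges of 8.64 to 9.87 in lumbar and 7.69 to 9.65 in sacral. That of the 8 glial markers fell in 10 of 10 donors, from a range of 8.54 to 9.03 to one of 7.96 to 8.65. Conversely, the summed level of the 7 fibroblast and meningeal markers ran from 7.71 to 8.89 in lumbar and from 8.13 to 9.27 in sacral. That of the 6 endothelial markers ran from 4.53 to 5.59 and from 5.04 to 5.92, and each sum was higher in sacral in 9 of 10 donors. The endothelial sum was mainly Cdh5 (mean of 4.83 log2 RPKM, against 2.12 for Pecam1, the next). Single genes of these lists varied. Limma called 3 of 7 fibroblast genes and 2 of 4 endothelial genes tested (Tek and Cdh5) higher, against 2.7% of all genes. Postn (-0.29), Pecam1 (-0.11) and Kdr (-0.04) were lower in sacral without a call. Cartilage markers (5 genes, 2.18 to 3.96 in lumbar and 2.58 to 4.76 in sacral) were higher in 9 of 10 donors. The cartilage sum was mainly Col2a1 (mean of 2.87 log2 RPKM, against -0.34 for Sox9, the next). Spinal cord markers (5 genes, -0.21 to 1.25 and 0.63 to 2.32) were higher in 10 of 10. This sum was mainly Slc5a7 (0.31 log2 RPKM in lumbar and 1.36 in sacral), while Mnx1 was at 0 in 19, Chat in 17 and Olig2 in 11 of 20 libraries. Macrophage markers (7 genes, 3.99 to 4.83 and 4.17 to 5.33) were higher in 8 of 10, red cell markers (5 genes, 5.63 to 7.58 and 5.73 to 7.43) in 6 of 10 and skeletal muscle markers (7 genes, 4.50 to 8.77 and 4.40 to 7.89) in 2 of 10, and these 3 differences did not pass the exact permutation test (p = 0.135, 0.488 and 0.398). Their part in the Arc and Nr4a1 differences was not tested, and in bulk ganglia fewer cells of a type and less RNA per cell cannot be told apart.

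Male and female donors were then compared. The interaction of level with sex was called for none of the 14529 genes by limma (470 at an unadjusted p under 0.05), so for none of the 4 members tested. Within male donors alone 0.461% of genes were called between levels and within female donors 0.881%, and no member was among them (limma adjusted p for Nr4a1 of 0.35 and 0.136). Arc fell by 2.37 ± 1.82 in male and by 1.44 ± 0.79 in female donors (SD, n = 5 each), and exchanging sexes between donors gave an exact permutation p of 0.333. The Nr4a1 difference was -0.55 ± 0.65 in male and -0.72 ± 0.56 in female donors (exact permutation p = 0.659). Ier2 and Atf3 had opposite mean directions in the sexes. Ier2 was 0.45 ± 0.69 in males and -0.54 ± 1.0 in females, and Atf3 was 0.81 ± 2.04 and -0.79 ± 0.98, with exact permutation p of 0.111 and 0.167 for the difference between sexes.

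Within a level, sex was called for no member tested, against 0.33% of genes in lumbar (0.0895% higher in females) and 1.01% in sacral DRG. Egr1 was 0.47 higher in female lumbar DRG and 0.27 higher in female sacral DRG, with limma adjusted p of 0.561 and 0.538. Fosb, which was below the limit, separated the sexes in sacral DRG. Female sacral libraries (F3, F7, F8, F9 and F10) stood at -2.67, -1.27, -2.93, -3.58 and -3.54 log2 RPKM and male sacral libraries (M1, M3, M5, M7 and M8) at -3.87, -4.94, -5.22, -3.69 and -3.92. The groups did not overlap, although F9 and M7 rested on 8 reads each. The exact permutation p was 0.00794, the smallest that 5 against 5 allow, among 20 such comparisons of 10 genes at 2 levels, and the sexes did not overlap in sacral DRG for 0.61% of genes below the limit, with females above males for 0.436%. In lumbar DRG the female libraries were higher by 1.98 (exact permutation p = 0.0714) and the groups overlapped. With all 27145 genes fitted by limma, the adjusted p for Fosb was 0.489 in sacral and 0.661 in lumbar.

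The share of mitochondrial rRNA varied widely between libraries, so the relation of each gene to the mean log2 value of mt-Rnr1 and mt-Rnr2 was examined. That value ran from 15.52 in sacral F3 to 18.37 in lumbar M5 and showed no detectable difference between levels (sacral minus lumbar 0.0064 ± 0.616, SD, n = 10 donors, exact permutation p = 0.971). Jun fell by 0.33 log2 units per unit of mitochondrial rRNA (SE 0.07, limma adjusted p = 0.000819). The slopes of Nr4a1 (-0.30, SE 0.13), Dusp1 (-0.18, SE 0.09) and Egr1 (0.16, SE 0.11) had adjusted p of 0.0656, 0.0972 and 0.222. Background was high, since 47.1% of the 14529 genes were called in this model and 32.3% were called lower, so 1 of 4 is not particular to these genes. The Jun slope was -0.35 without lumbar and sacral M5, and -0.34 within donors (donor as a fixed term), where its adjusted p was 0.366 and 66 genes in all were called.

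**Figure D4:**
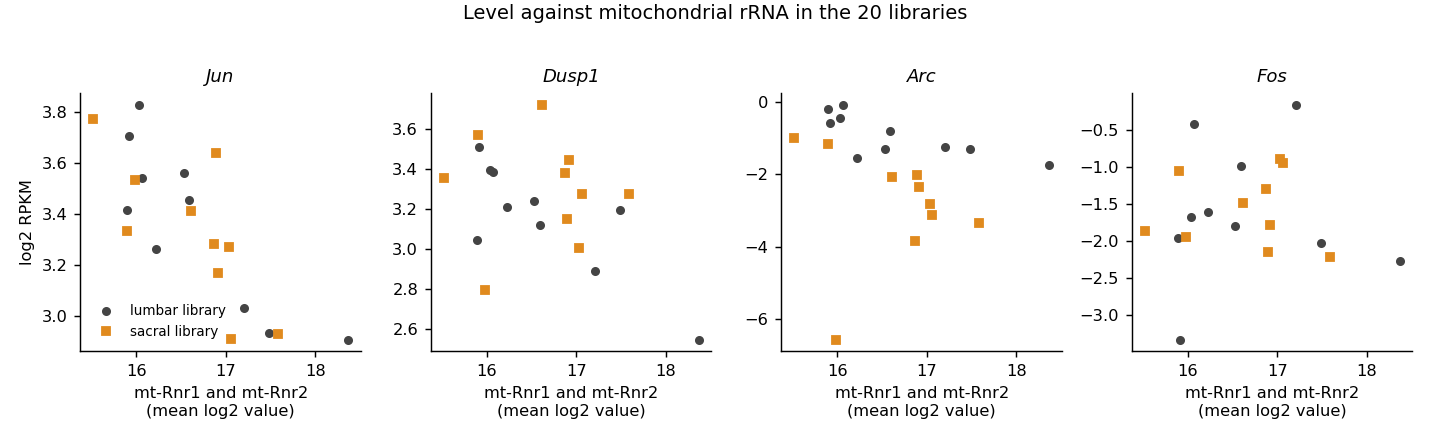
Log2 RPKM (y axis) of Jun, Dusp1, Arc and Fos against the mean log2 value of mt-Rnr1 and mt-Rnr2 (x axis) in 10 lumbar (dark circles) and 10 sacral (orange squares) libraries. Jun falls from left to right at both levels, the lowest Arc point is sacral M1, and the Fos points show no common direction.

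The same relation was computed as a correlation within each level, where libraries are independent. The shares of genes given for r cover the 14529 genes above the 1 RPKM limit, whereas 6 members, Arc among them, lay below it. In lumbar DRG 3 of 10 genes had an absolute r of at least 0.6, against 47.7% of the genes tested. These were Jun (r = -0.85, permutation p = 0.00126; rho = -0.72, p = 0.0236), Dusp1 (r = -0.80, permutation p = 0.0071; rho = -0.60, p = 0.0727) and Arc (r = -0.75, permutation p = 0.0102; rho = -0.76, p = 0.0141). Without M5 and F7, the libraries farthest from the median of mitochondrial rRNA, r was -0.70, -0.70 and -0.63 (exact permutation p = 0.0553, 0.0489 and 0.0869, n = 8). In sacral DRG 1 of 10 reached that size, against 26.4%. Jun had r = -0.74 (permutation p = 0.0143) and rho = -0.82 (p = 0.00583), and -0.70 without M3 and F3 (exact permutation p = 0.049, n = 8).

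In sacral DRG the r of Dusp1 was -0.04 (permutation p = 0.904) and that of Arc was -0.15 (permutation p = 0.69), and the difference from lumbar DRG was not tested. The Arc value depended on single libraries. Without M3 and F3, as for Jun, r was 0.59 (exact permutation p = 0.17, n = 8), and without M1 alone it was -0.84 (exact permutation p = 0.0042, n = 9), a value computed after M1 had been seen to stand apart. Fos showed no detectable relation at either level (r = 0.03 and -0.01, permutation p = 0.935 and 0.982), and without M5 and F7 the lumbar r was 0.64 (exact permutation p = 0.0905, n = 8). Egr1 had r of 0.35 in lumbar and 0.33 in sacral (permutation p = 0.327 and 0.349). Atf3 had r of 0.44 in lumbar and -0.52 in sacral (permutation p = 0.197 and 0.127), and -0.84 in sacral without M3 and F3 (exact permutation p = 0.0088, n = 8). Over donor differences, Jun (r = -0.60, permutation p = 0.0679) and Ier2 (r = -0.65, permutation p = 0.043; rho = -0.56, p = 0.0964) reached the same size, against 15.9% of the genes tested. Ier2 lay below the limit for that share, and had r = -0.64 without M8 and F9 (exact permutation p = 0.084, n = 8). In all 30 relations were computed with these p-values unadjusted. Mitochondrial rRNA as a covariate left the level differences nearly as they were, at -0.63 for Nr4a1 (limma adjusted p = 0.0246) and -1.90 for Arc after its slope was removed (exact permutation p = 0.00195). Mitochondrial rRNA itself differed by only 0.0064 between levels on average, so a linear covariate could move these mean differences very little.

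Next, the lumbar and sacral libraries of a donor were compared, to see whether a high level belonged to the embryo. Egr1 had the highest correlation over the 10 donors (r = 0.67, permutation p = 0.0317; rho = 0.72, p = 0.0232), and 0.90 without M7 and F8 (exact permutation p = 0.00322, n = 8). Background for r of at least 0.6 was 28.3% of the 14529 genes above the 1 RPKM limit, with a median r of 0.42. The median r over the 10 members was 0.29, but 6 of them lay below that limit, so the 2 medians cover unlike sets. Fos had the lowest r (-0.50, permutation p = 0.141; rho = -0.41), and -0.17 without M3 and F8. In M3, Fos stood at -3.33 in lumbar and -1.06 in sacral, whereas in F8 it stood at -0.16 and -2.15. After the slope on mitochondrial rRNA was removed, the r of Egr1 was 0.55 (permutation p = 0.0993).

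Pairs of members were then compared with each other. The 45 pairs of members within each level gave 90 correlations, with a median r of 0.08, and 50 were positive. An unadjusted permutation p of at most 0.05 was reached by 9 of the 90, 7 in lumbar and 2 in sacral DRG. The share among pairs of all genes was not computed, so this count has no background to be read against. Fos and Fosb, which are often induced together, had r of 0.50 in lumbar (permutation p = 0.141) and 0.23 in sacral (permutation p = 0.531). Jun and Dusp1 in lumbar DRG gave the highest value, r = 0.77 (permutation p = 0.00542; rho = 0.84, p = 0.00331), and 0.85 without M5 and F7. Both fell with mitochondrial rRNA there. In sacral DRG the r of the same pair was -0.12 (permutation p = 0.752).

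Related genes were grouped in 6 lists and read from the same fits, in which 2.7% of all genes were called higher in sacral and 4.03% lower. Of 18 other immediate early transcription factors 12 were tested between levels, of which 1 was higher in sacral, 1 was lower and 10 did not pass, with a median of 0.15 against -0.05 over all genes. Klf4, a zinc finger factor of epithelial and endothelial cells, was higher by 0.89 (SE 0.19, limma adjusted p = 0.00899, higher in 9 of 10 donors). Egr2, the zinc finger factor that drives Schwann cell myelination, was lower by 1.10 (SE 0.27, limma adjusted p = 0.0185, lower in 9 of 10 donors, and 7.41% of the genes tested were lower in at least 9). Egr3, Egr4, Nr4a3, Npas4, Fosl1 and Mafk were below 1 RPKM in all groups, Npas4 at -5.13 and Egr4 at -6.69 log2 RPKM on average. Of 22 other signalling and effector genes 17 were tested, of which 4 were higher, 1 was lower and 12 did not pass. Ctgf (0.80, SE 0.18) and Cyr61 (0.50, SE 0.14), which encode matrix-associated signalling proteins, and Per1 (0.38, SE 0.10), a circadian clock gene, were higher, with limma adjusted p of 0.0111, 0.0327 and 0.0272. Dusp4, a MAP kinase phosphatase like Dusp1, was lower in sacral by 0.48 (SE 0.10, limma adjusted p = 0.00726) in 10 of 10 donors, as were 1.95% of the genes tested.

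Each of the 4 injury and stress lists held 1 call between levels, against 6.73% of all genes called. The 20 axon injury and regeneration symbols gave 15 Ensembl genes tested, counting Flrt3 under 2 identifiers. Anxa1 was higher in sacral (1.09, SE 0.24, limma adjusted p = 0.00947) and the other 14 did not pass. Sprr1a, a gene induced strongly in cut sensory neurons, averaged -3.73 log2 RPKM, whereas the growth cone protein gene Gap43 averaged 8.15 in lumbar and 7.90 in sacral DRG. Atf4, the central factor of the integrated stress response, was lower by 0.32 (SE 0.09, limma adjusted p = 0.0333) and was the only call among 8 of 10 genes tested in its list. Bag3, a co-chaperone, was lower by 0.63 (SE 0.13, limma adjusted p = 0.00821) and was the only call among 10 of 12 heat shock genes. Egln3, an oxygen-sensing hydroxylase, was higher by 0.47 (SE 0.11, limma adjusted p = 0.0134) and was the only call among 8 of 10 hypoxia genes. Medians over the genes tested were 0.17 for the injury list, -0.06 for the integrated stress list, -0.20 for the heat shock list and 0.04 for the hypoxia list, against -0.05 over all genes. Sex was called for 1 gene of these lists, Homer1, a scaffold protein of synapses, which was lower in female sacral DRG by 0.88 (limma adjusted p = 0.00715).

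The same lists were then read for the slope on mitochondrial rRNA. Of 15 Ensembl genes of the axon injury and regeneration list (Flrt3 counted under 2 identifiers) 9 fell and 1 rose with it, and of 10 heat shock genes 7 fell and 1 rose, against 32.3% of all genes called lower and 14.8% called higher. Examples were the neuropeptide gene Gal (-0.51, SE 0.11, limma adjusted p = 0.00101), Gap43 (-0.47, SE 0.11, limma adjusted p = 0.00172), the chaperone gene Hsp90aa1 (-0.52, SE 0.09, limma adjusted p = 0.000346) and, rising, Hspe1 (0.54, SE 0.11, limma adjusted p = 0.000661). Among the other immediate early transcription factors 1 of 12 fell (Myc, -0.39, SE 0.07, limma adjusted p = 0.000293) and none rose. Of 17 signalling and effector genes 5 fell, led by Ier3 (-0.53, SE 0.08, limma adjusted p = 0.000137), and Sgk1 rose. In the integrated stress list 2 of 8 fell (Asns and Hspa5) and in the hypoxia list 3 of 8 fell (Slc2a1, Ldha and Ndrg1) and Ankrd37 rose. All 8 sensory neuron markers fell with mitochondrial rRNA, with a median slope of -0.50 against -0.10 over all genes, and their part in the slope of Jun was not tested. The slope calls of these lists and markers were made with donor as a block. With donor as a fixed term, 64 of the 14529 genes were called higher and 2 lower.

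**Figure D5:**
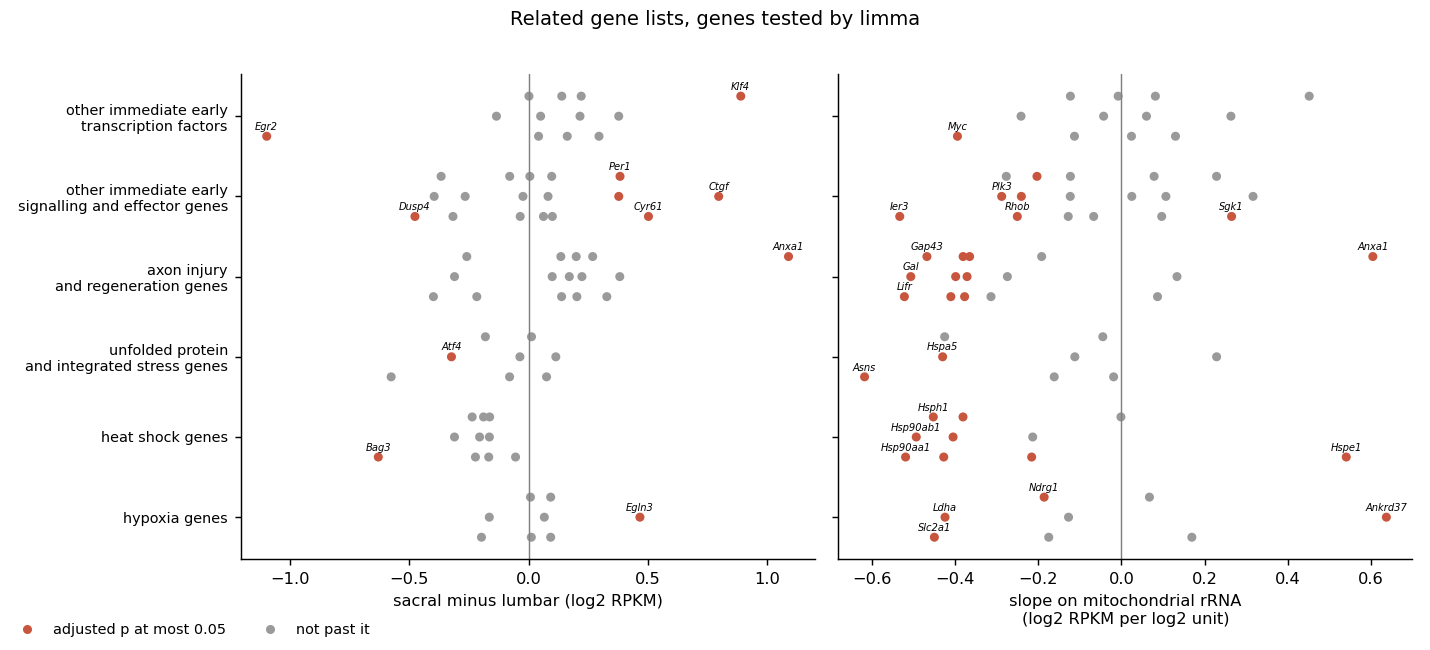
Sacral minus lumbar difference (left, log2 RPKM) and slope on mitochondrial rRNA (right, log2 RPKM per log2 unit) of the genes tested in 6 related lists, one row per list with points offset for legibility. Red points had a limma adjusted p of at most 0.05, and up to 4 of them per list are named. Egr2 at -1.10 and Anxa1 at 1.09 are the extremes on the left, and most red points on the right lie below 0.

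Genes most like Fos, Atf3 and Arc in their spread over the 20 libraries, after the mean of each group was subtracted, were listed as a description. For Fos these were Ctss (r = 0.83), Ing5 (0.78), Brpf1 (0.72), Pex3 (0.69) and Als2cr4 (0.68). For Atf3 they were Pak1ip1 (0.81), Rdh10 (0.80), Rps16 (0.76), Pofut1 (0.75) and Snora31 (0.71). For Arc they were Braf (0.85), Bod1l (0.82), Slc25a35 (0.81), Pcx (0.80) and Trp53bp1 (0.79). None of the 15 was an immediate early gene of the lists above, and none was called between levels (limma adjusted p from 0.155 to 0.97). These r were the highest of 14529 genes for targets with few reads, and the Arc values include sacral M1.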

How the data were processed

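Dorsal root ganglia of 20 samples (10 donors, 2 spinal levels) had been sequenced. The deposited table holds log2 RPKM values, which the authors made from reads aligned to mm9 with Subread and counted with featureCounts on Ensembl genes, followed by TMM scaling and voom. The submitters' notes list R 3.2.1 and 3.2.2, Subread 1.18 and 1.20.6, limma 3.26.9 and edgeR 3.12.1. All libraries have the same median (0.93), so differences are relative to it. Low values step by whole reads, and reads were recovered for 28324 of 29049 genes (98.3% of values within 0.05 of a whole number), but not for Egr1. A blank was set to 0.5 reads. Intervals and limits cover counting error only, since the RNA was amplified. Symbols, lengths and coordinates were taken from GENCODE M1.

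Genes with a mean log2 RPKM of at least 0 (1 RPKM) in a group (14529) were fitted with limma 3.58.1 (R 4.3.3, statmod 1.5.0, eBayes with trend) as 4 group means with donor as a block (consensus correlation 0.342), and p-values were adjusted by Benjamini-Hochberg over all of them (threshold 0.05). Adjusted p-values are from this fit unless stated. Pairing comes from the labels, since both libraries of a number are from 1 embryo. Their deviations from the group means correlated from -0.166 to 0.676, and 3 of 10 lumbar libraries correlated best with their own donor. The 6 genes below the limit were tested by an exact sign-flip permutation test over donors. Correlations used 100000 resamples, or exact enumeration with fewer than 10 values (scipy 1.17.1, Python 3.11.15), and all tests were two-sided. Fits were tested on simulated data. All 10 members are named, with list genes chosen by call and size and the 5 genes most like Fos, Atf3 and Arc. Npas4, Egr4 and Sprr1a were named after their values were seen. Members and lists were chosen with earlier results of these data known. Alternatives were other filters, scalings, weights, blocks and covariates, and leaving out each donor.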

Additional observations from a re-analysis of the deposited data

Results flagged for a closer look

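Nr4a1 in lumbar male DRG stood at 0.87 log2 RPKM in donor M5, below the other 4 libraries of the group (1.83 to 2.12). Its gap to the nearest library was 0.769 of the range of the group, above Dixon's critical value of 0.71 for 5 samples. This was 1 of 40 groups of 5 libraries examined, and chance flags about 1 group in 20. Lumbar M5 was also the library with the most mitochondrial rRNA (61.4% of reads), and the part of that in the value was not tested. Without donor M5 the sacral minus lumbar difference of Nr4a1 was -0.72 (limma adjusted p = 0.0256).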

How the results depend on the processing

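No direction of a called result was reversed under any alternative run. Of the 4 genes tested between levels 1 was called, and 0 were called with no replicate block, 0 with a filter of 4 RPKM (where 2 were tested) and 0 to 1 when each donor was left out. The Nr4a1 call was also lost with no filter on low values (adjusted p = 0.0668), and held with donor as a fixed term (0.0401). Arc kept its direction and an exact permutation p of at most 0.00391 in all 15 alternatives, from -2.05 to -0.37, the last on the log2(RPKM + 1) scale. For the slope on mitochondrial rRNA 1 of the 4 genes was called. The count was 2 with no replicate block, 2 after quantile normalization and 2 with mitochondrial protein genes as the covariate. Of all 14529 genes, these 3 fits called 7266, 5939 and 6027, so 2 of 4 is not particular to the members. The count was 0 with the replicate block as a fixed term and 1 to 2 when each donor was left out. Dusp1 passed without M1 (-0.23, limma adjusted p = 0.00982), where 7090 of the 14529 genes were called. Correlations with mitochondrial rRNA at p of at most 0.05 went from 3 to 1 in lumbar, from 1 to 2 in sacral and from 1 to 0 over donor differences without the 2 farthest samples, and the donor correlation went from 1 to 0 once the slope was removed. The replicate block changed no other call. Over all genes, 978 were called between levels (392 higher and 586 lower), against 437 higher and 410 lower after quantile normalization, 154 with no replicate block, 504 with no filter, 2998 with sample weights and 401 (without F10) to 1594 (without F8) when each donor was left out. Slope calls fell from 6839 to 3602 without M5 and to 66 with donor as a fixed term. The causes were not tested. Recentring, the filter on linear means, removal of the slope for Arc, the covariate with no filter and the Arc correlation without M1 were chosen after seeing the data. Depth limits Fos, Fosb, Junb, Atf3, Arc and Ier2, with 0 to 96 reads per library.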
